A study of Mus musculus with 32 samples.

Results

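Lag3, Lgals3, Fgl1 and Aplp1 encode the receptor LAG-3, its ligands galectin-3 and FGL1, and the neuronal surface protein APLP1, which binds alpha-synuclein fibrils together with LAG-3. They were found by their Ensembl identifiers among the 74021, 74016 and 74021 gene rows of 3 count tables, and all 4 were present in each table. RNA-seq covered 32 mouse libraries of lumbar spinal cord from a model of amyotrophic lateral sclerosis. In the first experiment, CD11b+/CD45int microglia were sorted by flow cytometry from WT mice (4 libraries, age not given in the sources used here) and, by the level of LAG-3 on the cell surface, from SOD1G93A mice at P140, which gave a LAG-3-low and a LAG-3-high fraction (5 libraries each). In the second, microglia came from SOD1G93A mice with intact Lag3 (SOD1G93A/LAG-3+/+) or without it (SOD1G93A/LAG-3-/-) at postnatal days 120 and 140 (P120 and P140, 3 libraries per group). In the third, whole lumbar cord was taken at P140 from the same genotypes (3 libraries each). SOD1G93A mice carry a human mutant SOD1 transgene in the heterozygous state, which every group but WT carried, and the LAG-3-/- allele is a germline disruption that affects every cell type of the mouse.

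LAG-3 is an inhibitory receptor of the immunoglobulin superfamily, best known from exhausted T cells, where it binds MHC class II more tightly than CD4 does. Galectin-3 is a lectin of activated macrophages and microglia that can bind the sugars of LAG-3. FGL1 is a fibrinogen-like protein secreted mainly by the liver, and APLP1 is a neuronal relative of the amyloid precursor protein. LAG-3 is released from the cell surface by the metalloproteases ADAM10 and ADAM17.

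In GRCm39 with the GENCODE vM39 annotation, Lag3 (ENSMUSG00000030124) lies at chr6:124881320-124888765 on the minus strand with 8 exons in the canonical transcript of 2005 bases. Lgals3 (ENSMUSG00000050335) lies at chr14:47605208-47623624 on the plus strand (6 exons, 1377 bases). Fgl1 (ENSMUSG00000031594) lies at chr8:41644457-41668205 on the minus strand (8 exons, 1146 bases), and Aplp1 (ENSMUSG00000006651) lies at chr7:30134404-30145102 on the minus strand (17 exons, 2488 bases). No annotated gene overlapped any of the 4. The gene nearest to Lag3, Ptms, lay 1256 bases away on the same strand.

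The primers the study used on Lag3 are shown because they place the genotyped region and the qPCR target on the gene. Capitals mark bases inside a coding exon, and lower case marks bases outside the gene or in an intron.
genotyping primer LAG-3 forward: tgtccaagagatgctgaaagg
genotyping primer LAG-3 reverse: ggccatcccttcttctacac
qPCR primer LAG-3 forward: CTCCATCACGTACAACCTCAAGG
qPCR primer LAG-3 reverse: GGAGTCCACTTGGCAATGAGCA
Each matched chromosome 6 at 1 place. The genotyping forward primer lay at chr6:124889023-124889043 on the minus strand, 258 bases before the start of the gene, and the reverse primer at chr6:124886928-124886947 on the plus strand, in intron 3. The product they span on the reference is 2116 bases long and holds exons 1 to 3. The qPCR forward primer lay in exon 4 (chr6:124886195-124886217, minus strand) and the qPCR reverse primer in exon 5 (chr6:124885498-124885519, plus strand), so that the qPCR target lies downstream of the genotyped region. On the spliced transcript the qPCR product was 147 bases long, with 29 bases of exon 4 and 118 of exon 5, and is printed here with the primer sites in capitals.
qPCR product on the spliced Lag3 transcript: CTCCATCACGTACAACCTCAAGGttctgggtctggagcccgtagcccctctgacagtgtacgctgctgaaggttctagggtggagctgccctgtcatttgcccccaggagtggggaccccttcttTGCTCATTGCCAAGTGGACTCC
Which exons the LAG-3-/- allele lacks is not given in the sources used here, and the gene counts below sum over all transcripts of a gene, so they do not show which exons the reads came from.

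Library totals ranged from 9403286 to 49512341 estimated counts. Levels are given as CPM, a gene's counts relative to the library total corrected by TMM within a table, and levels of different genes are compared only per kilobase of canonical transcript. Fold changes are from edgeR (quasi-likelihood), with p-values adjusted by Benjamini-Hochberg over the 16508, 18669 and 17702 genes tested in the LAG-3-sorted, stage and cord tables. Genes with an adjusted p below 0.1 were called, and in the LAG-3-sorted and cord tables the level also had to differ by more than 1 on the log2 scale. Relative to library totals, TMM moved all genes by 0.28 (LAG-3-high over WT), 0.38 (LAG-3-high over LAG-3-low), 0.49 (P140 over P120, SOD1G93A/LAG-3+/+), -0.32 (SOD1G93A/LAG-3-/- over SOD1G93A/LAG-3+/+ at P140) and 0.13 (the same in cord) on the log2 scale. The labels do not say whether replicates were separate mice, so p-values measure the spread between these libraries, which may be technical. Of the 8 microglial markers used, Tmem119, P2ry12, Cx3cr1 and Csf1r, among others, were above 10 CPM on average in every microglia group. A list of 10 neutrophil markers summed to 5957 to 70492 CPM in WT and 22825 to 66303 CPM in LAG-3-low libraries, but to 1.21 to 7.33 CPM in LAG-3-high libraries. In the stage table the same sum was 1738 to 2570 CPM in P120 SOD1G93A/LAG-3+/+ and 0.1003 to 3.16 CPM in P120 SOD1G93A/LAG-3-/- libraries, and at P140 it ran from 0.192 to 3470 and from 1.03 to 4610 CPM. Another list held 8 monocyte and border macrophage markers, some of whose cells express MHC class II. Their sum was 39.9 to 740 CPM in WT, 211 to 578 CPM in LAG-3-low and 2.96 to 13.97 CPM in LAG-3-high libraries. Of 7 tested, 4 were called lower in LAG-3-high than WT microglia, beside 14.9% of all genes. In the stage table that sum was at most 16.7 CPM, except for 170 CPM in P140 SOD1G93A/LAG-3-/- replicate 3. The part of these markers in the results below was not tested.

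Lag3 checked the knockout labels first. In microglia at P120 it stood at 62.9, 61.7 and 53.4 CPM in the 3 SOD1G93A/LAG-3+/+ libraries and at 0.163, 0.462 and 0.251 CPM in the 3 SOD1G93A/LAG-3-/- libraries, which held 7, 14 and 10 counts. At P140 it stood at 28.1, 24.5 and 25.7 CPM in SOD1G93A/LAG-3+/+ microglia and at 0.158, 0.0239 and 0.336 CPM in SOD1G93A/LAG-3-/- microglia, from 4, 1 and 10 counts. The genotypes did not overlap at either stage, and every SOD1G93A/LAG-3-/- library went with its label. At P120 Lag3 fell by 7.68 on the log2 scale (SE 0.70, edgeR adjusted p = 0.00484), the smallest p of the 18669 genes. At P140 it fell by 7.27 (SE 0.71, adjusted p = 0.00451). The P140 call was lost when only the 6 libraries of that stage entered the fit, with a log2 fold change of -7.24 and an adjusted p of 0.207.

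At P120, 0.0107% of the genes tested were called, which was 2 genes, both lower (0.0107%) in SOD1G93A/LAG-3-/- microglia and 0 higher (0%). They were Lag3 and the gene model Gm30890, named here after its values were seen, whose log2 fold change was -2.88 (SE 0.36, edgeR adjusted p = 0.0576). Of the 3 members tested, Lag3 was called, and Lgals3 and Aplp1 were not. Without adjustment 551 genes had a p under 0.05, and DESeq2 called 162. At P140, 10.2% of all tested genes passed (7.22% with a higher and 3% with a lower level in SOD1G93A/LAG-3-/- microglia), and of the 3 members tested Lag3 was again the 1 called.

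In whole cord the Lag3 level also fell in SOD1G93A/LAG-3-/- mice, by less than in microglia. Cord libraries held 74.5, 43.4 and 61.4 CPM of Lag3 in SOD1G93A/LAG-3+/+ mice and 5.72, 5.60 and 5.504 CPM in SOD1G93A/LAG-3-/- mice, the last from 100, 142 and 110 counts. The genotypes did not overlap, and the 3 SOD1G93A/LAG-3-/- libraries had a mean of 5.61 CPM with an SD of 0.108 CPM. Lag3 fell by 3.41 on the log2 scale (SE 0.19, edgeR adjusted p = 4.34e-05), a 10.7-fold lower level and the smallest p of the 17702 genes. It was 1 of the 4 members called, where 7.52% of all genes tested were (4.37% higher and 3.15% lower). In microglia the fitted ratios were 205-fold at P120 and 154-fold at P140. The difference between cord and microglia was not tested, since the tables were normalized separately and their library kits differed.

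**Figure D1:**
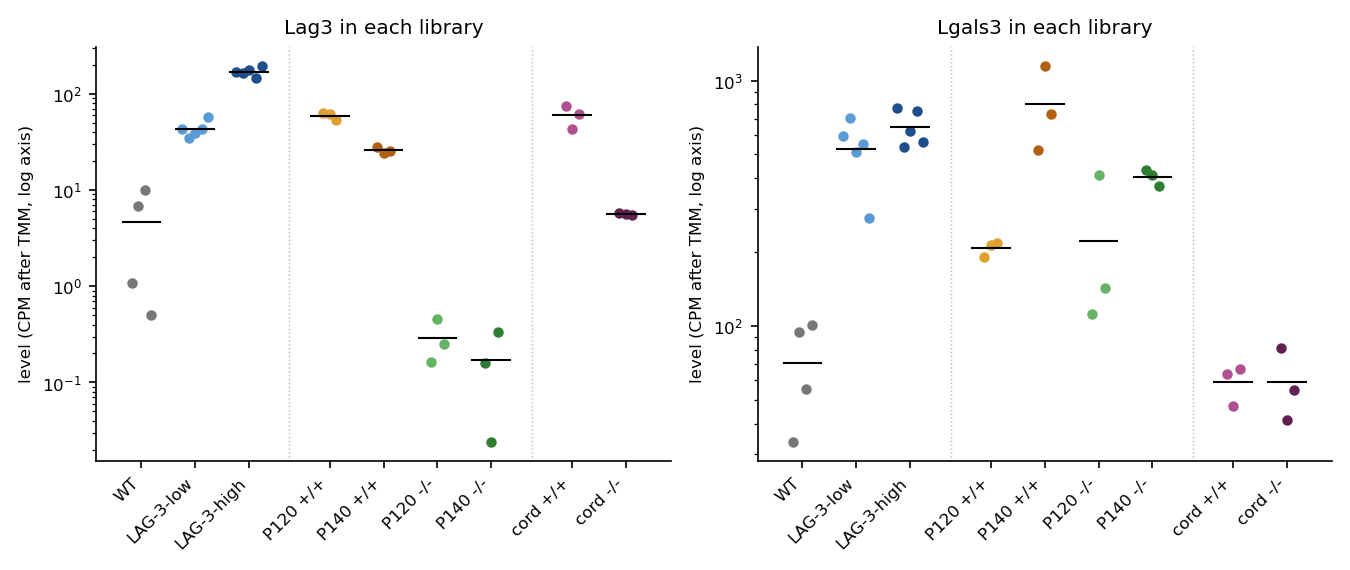
Level of Lag3 (left) and Lgals3 (right) in each library, in CPM after TMM scaling on a log axis, for the 9 groups; points are libraries, short lines are group means, dotted lines separate the 3 tables, and +/+ and -/- give the Lag3 genotype of SOD1G93A mice. Lag3 runs from 0.0239 CPM in a P140 SOD1G93A/LAG-3-/- microglia library to 195 CPM in a LAG-3-high library, and Lgals3 from 33.5 CPM in a WT library to 1149 CPM in a P140 SOD1G93A/LAG-3+/+ microglia library.

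The sort by surface LAG-3 and the Lag3 transcript gave the same order of groups. WT microglia held 1.07, 6.88, 9.99 and 0.508 CPM of Lag3, LAG-3-low microglia 42.9, 34.8, 38.7, 43.0 and 57.8 CPM, and LAG-3-high microglia 167, 163, 176, 146 and 195 CPM. No neighbours in that order overlapped, and WT had the widest relative spread (4.61 ± 4.60 CPM, SD, n = 4, against 43.5 ± 8.72 and 169 ± 18.0 CPM, n = 5 each). Expressed per 1000 CPM of the 8 microglial markers, Lag3 was 0.127 ± 0.122 in WT, 2.21 ± 0.241 in LAG-3-low and 6.77 ± 0.583 in LAG-3-high microglia (SD). The 8 markers themselves were not level. Of them 6 were called lower and 0 higher than WT in each fraction, beside 11% (LAG-3-low) and 14.9% (LAG-3-high) of all genes lower. Their sum averaged 33752 CPM in WT, 19718 in LAG-3-low and 24987 in LAG-3-high microglia, so the ratio to them exceeds the rise in CPM. The fractions were gated on the LAG-3 protein, so the Lag3 level of LAG-3-high microglia, against LAG-3-low or WT microglia, checks the sort and is not a finding. Between the fractions the log2 fold change, 1.96 (SE 0.56, edgeR adjusted p = 0.0837), lay close to the threshold, and leaving out any of the 10 SOD1G93A libraries moved the adjusted p to between 0.122 and 0.202. LAG-3-low microglia, the fraction with the weaker LAG-3 stain, held more Lag3 than WT microglia, by 3.24 on the log2 scale (SE 0.65, edgeR adjusted p = 0.00515). This fraction was gated on LAG-3 too, and no such gate is described for WT microglia, so the gate may also enter this difference. The log2 difference of LAG-3-high over WT, which the gate sets in part, was 5.20 (SE 0.72, adjusted p = 0.000238). Both comparisons share the WT libraries.

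With disease stage, the lower Lag3 level at P140 in SOD1G93A/LAG-3+/+ microglia was not called. Lag3 averaged 59.3 ± 5.22 CPM at P120 and 26.1 ± 1.84 CPM at P140 (SD, n = 3 each), with no overlap. Its log2 fold change of -1.19 (SE 0.52, 95% interval -2.33 to -0.04) had an edgeR p of 0.0435 and an adjusted p of 0.136, so it was not called. The value depended on the test. It was called by DESeq2 (-1.08, adjusted p = 0.00993), in a fit of only the 2 groups (edgeR, -1.17, adjusted p = 0.0115) and without TMM (edgeR, -1.67, adjusted p = 0.0587). It was also called when P140 SOD1G93A/LAG-3-/- replicate 2 or 3 was left out (edgeR adjusted p = 0.0606 and 0.0863). Per 1000 CPM of microglial markers Lag3 was 2.12 ± 0.233 at P120 and 0.674 ± 0.0949 at P140. The markers were not level here either, with a mean sum of 28040 CPM at P120 and 39013 CPM at P140. Of the 8 markers 2 were called higher and 2 lower, beside 11.9% and 15.5% of all genes. The ratio therefore falls further than the CPM and adds no separate measure of the change. The SOD1G93A fractions sorted by LAG-3 at P140 both stood above 26.1 CPM, at 43.5 ± 8.72 and 169 ± 18.0 CPM, in a separately normalized table. The paper reports that LAG-3 mRNA and protein in whole lumbar cord, and the LAG-3+/Iba1+ area, rose with disease up to P140. A late loss of Lag3 from microglia is thus not shown here.

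Lgals3, the transcript of galectin-3, was higher in both SOD1G93A fractions than in WT microglia. WT libraries held 33.5, 94.1, 55.6 and 101 CPM, LAG-3-low libraries 597, 703, 509.9, 554 and 275 CPM, and LAG-3-high libraries 777, 536, 624, 752 and 560.4 CPM. All 10 SOD1G93A libraries, whose fractions may share mice, lay above all 4 WT libraries, and the ranges of the fractions overlapped. Lgals3 rose over WT by 2.90 on the log2 scale in LAG-3-low (SE 0.34, edgeR adjusted p = 0.000176) and by 3.20 in LAG-3-high microglia (SE 0.35, adjusted p = 3.58e-05). These comparisons called 21.9% (10.9% higher, 11% lower) and 27% (12.1% higher, 14.9% lower) of all genes tested, and of the 3 members tested Lgals3 was called in each, beside Lag3, on whose protein the cells were gated. Both Lgals3 calls held under every alternative fit in edgeR and DESeq2.

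Between the sorted fractions no difference in Lgals3 was detected. The log2 fold change of LAG-3-high over LAG-3-low was 0.30 (SE 0.29, 95% interval -0.33 to 0.92, edgeR adjusted p = 0.836), and without TMM it was -0.073. Of all genes tested 3.49% were called here (0.818% higher and 2.67% lower), and of the 3 members tested Lag3 was the 1 called. An exact two-sided permutation test of the mean log2 CPM gave 0.35 for Lgals3 (p = 0.190, adjusted p = 0.245 over 9 tests of 3 members and 3 pairs of groups). The same test gave adjusted p = 0.0286 for Lgals3 in both comparisons with WT (exact p = 0.0159 each), and the same adjusted p for Lag3 in each of the 3 pairs, where the gate on LAG-3 enters. LAG-3-low replicate 5, at 275 CPM, was the lowest SOD1G93A library.

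**Figure D2:**
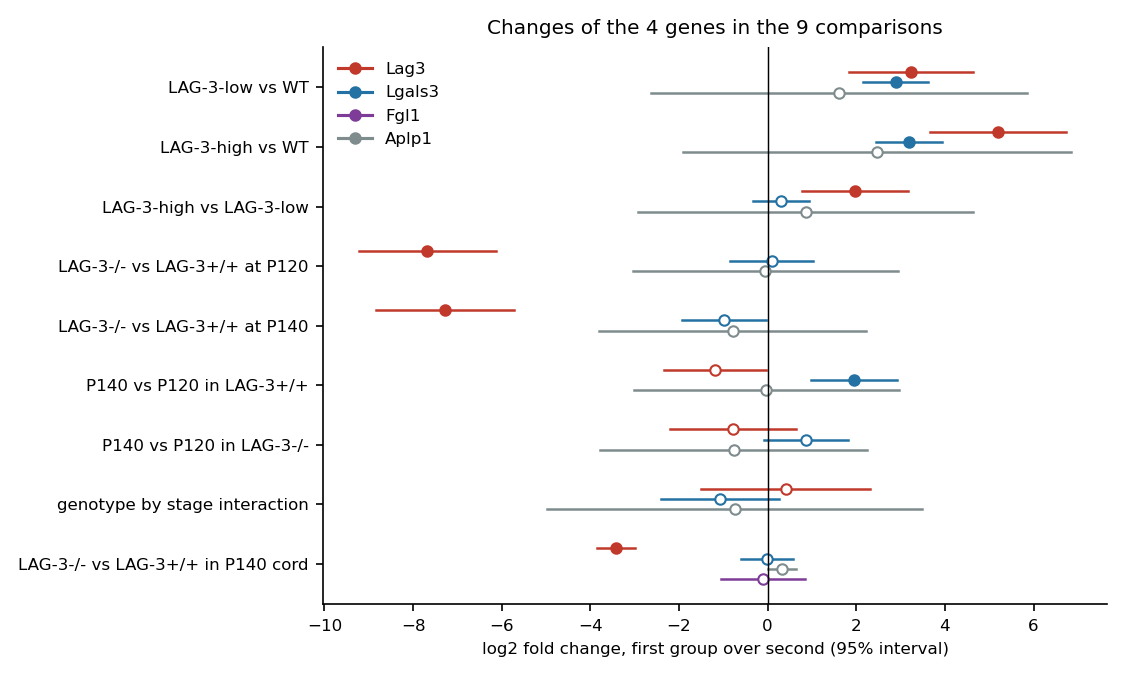
Log2 fold change of each member in the 9 comparisons (x axis, first group over second), with 95% intervals; filled points were called and open points were not, and Fgl1 was tested in the cord only. Lag3 reaches -7.68 and -7.27 in SOD1G93A/LAG-3-/- microglia, and Lgals3 departs from 0 against WT and with stage in SOD1G93A/LAG-3+/+ microglia (1.94).

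Lgals3 rose from P120 to P140 in SOD1G93A/LAG-3+/+ microglia. The libraries held 191, 214 and 219 CPM at P120 and 523, 1149 and 728 CPM at P140, with no overlap and a far wider spread at P140 (208 ± 15.1 and 800.1 ± 319 CPM, SD, n = 3 each). The log2 fold change was 1.94 (SE 0.44, edgeR adjusted p = 0.0135), where 27.4% of all genes tested were called (11.9% higher and 15.5% lower) and Lgals3 was the 1 called of 3 members tested. It stayed called with each library left out, at 1.59 to 2.17. Genes in this comparison moved with transcript length. Those over 4 kb had a median log2 fold change of -1.03, and those within 10% of the length of Lgals3 had a median of 0.50. With a correction for the length and GC content of transcripts, chosen after the data were seen, Lgals3 came to 0.98 (adjusted p = 0.118) and was no longer called, and Lag3 to -1.39 (adjusted p = 0.119). The part of transcript length in these changes was not tested beyond this correction.

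**Figure D3:**
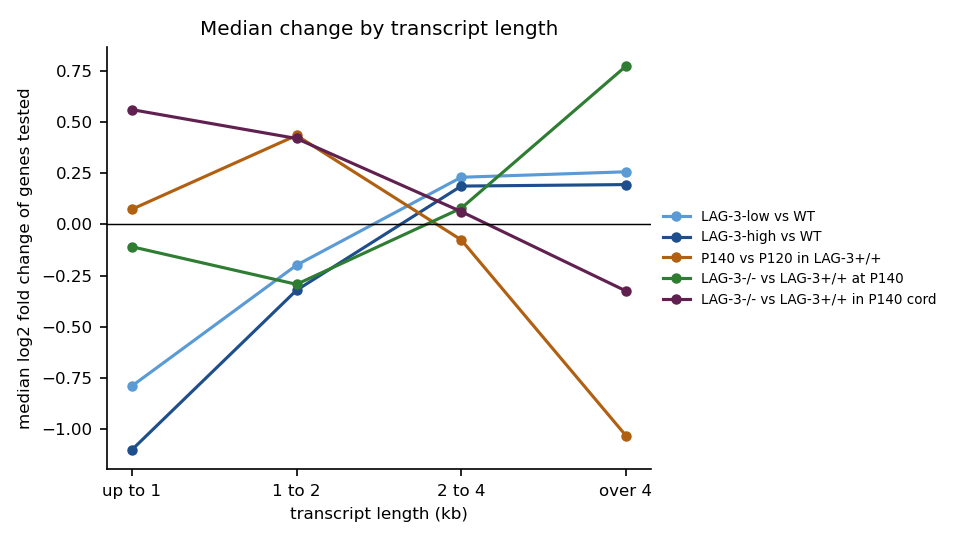
Median log2 fold change of all genes tested (y axis) by canonical transcript length in kilobases (x axis) for 5 comparisons. Between P120 and P140 in SOD1G93A/LAG-3+/+ microglia the median runs from 0.43 at 1 to 2 kb, the bin of Lgals3, to -1.03 over 4 kb, and it runs the other way at P140 between genotypes (-0.29 to 0.77).

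In SOD1G93A/LAG-3-/- microglia Lgals3 was not called with stage. P120 libraries held 112, 411 and 142 CPM and P140 libraries 433, 411 and 374 CPM. Replicate 2 at P120 lay inside the P140 range, and replicates 1 and 3 lay below it. The log2 fold change with stage was 0.87 (SE 0.43, 95% interval -0.07 to 1.81, edgeR adjusted p = 0.599), against 1.94 in SOD1G93A/LAG-3+/+ microglia. The difference between these changes, tested as the interaction, was -1.07 (SE 0.60, 95% interval -2.40 to 0.26, adjusted p = 0.463), so the stage effect was not shown to depend on genotype. In this comparison edgeR called 0 of 18669 genes (0%), with 1658 at an unadjusted p under 0.05, and DESeq2 called 464. The interaction called 0.171% of genes (0.161% higher and 0.0107% lower) and no member. The Lag3 interaction was 0.41 (SE 0.87, adjusted p = 0.895) and turned to -0.60 without P140 SOD1G93A/LAG-3-/- replicate 3.

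Between genotypes Lgals3 was called at neither stage. At P120 its log2 fold change between genotypes was 0.09 (SE 0.43, 95% interval -0.84 to 1.03, edgeR adjusted p = 1), and it became -0.71 without SOD1G93A/LAG-3-/- replicate 2. At P140 all 3 SOD1G93A/LAG-3-/- libraries lay below all 3 SOD1G93A/LAG-3+/+ libraries. The log2 fold change was -0.98 (SE 0.43, 95% interval -1.92 to -0.03), with an edgeR p of 0.0435 and an adjusted p of 0.194. It was called when P120 SOD1G93A/LAG-3-/- replicate 2 was left out (-0.97, edgeR adjusted p = 0.0764), and with the length and GC correction it was -0.27 (adjusted p = 0.744). Genes within 10% of the length of Lgals3 had a median of -0.31 at P140.

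In whole cord no difference in Lgals3 between the genotypes was detected. SOD1G93A/LAG-3+/+ libraries held 63.8, 47.2 and 67.0 CPM and SOD1G93A/LAG-3-/- libraries 81.2, 41.4 and 54.7 CPM, with the second range enclosing the first. The log2 fold change was -0.01 (SE 0.25, 95% interval -0.60 to 0.58, edgeR adjusted p = 0.981). In bulk tissue fewer cells of a type and less RNA per cell cannot be told apart. The 8 microglial markers summed to 1141 to 1436 CPM in SOD1G93A/LAG-3+/+ and 816 to 1109 CPM in SOD1G93A/LAG-3-/- cord. Per 1000 CPM of them Lgals3 was 44.5 ± 2.81 and 60.3 ± 11.6 (SD, n = 3 each), with no overlap between 41.3 to 46.6 and 50.7 to 73.2, and 3 libraries against 3 cannot give an exact p below 0.1.

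The same ratio was taken for Lag3 in cord and in microglia. In SOD1G93A/LAG-3+/+ mice at P140, Lag3 per 1000 CPM of microglial markers was 44.7 ± 7.80 in cord and 0.674 ± 0.0949 in sorted microglia. The microglia sorted by LAG-3 at P140 sat higher, at 2.21 ± 0.241 and 6.77 ± 0.583, so the distance to cord depends on the microglia table. Lgals3 was 44.5 ± 2.81 in cord and 20.6 ± 8.69 in sorted microglia, and Trem2, a receptor of disease-associated microglia, was 78.0 ± 8.66 and 62.8 ± 12.5. For SOD1G93A/LAG-3-/- mice the Lag3 ratio was 5.91 ± 0.871 in cord and 0.00599 ± 0.00638 in microglia (SD, n = 3 throughout). The cord and the microglia were normalized in separate tables and made with different library kits, so these values stand side by side without a test. T cell markers (Cd3d, Cd3e, Cd3g, Trac, Trbc2, Cd8a, Cd8b1) summed to 3.57 to 5.60 CPM over the 6 cord libraries and to at most 3.28 CPM in any microglia library, and Cd3e, Trac and Trbc2 were at 0 in all LAG-3-sorted libraries. In the cord NK cell markers summed to at most 0.823 CPM and B cell markers to at most 1.76 CPM. Of 6 genes for plasmacytoid dendritic cells, 2 exceeded 10 CPM in cord, and the sum of the 6, at 119 to 193 CPM in cord, was 123 to 393 CPM in sorted microglia, so it does not measure these cells. Neuronal markers summed to 4538 to 6389 CPM and 6315 to 6896 CPM. The part of any of these cells in cord Lag3 was not tested.

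**Figure D4:**
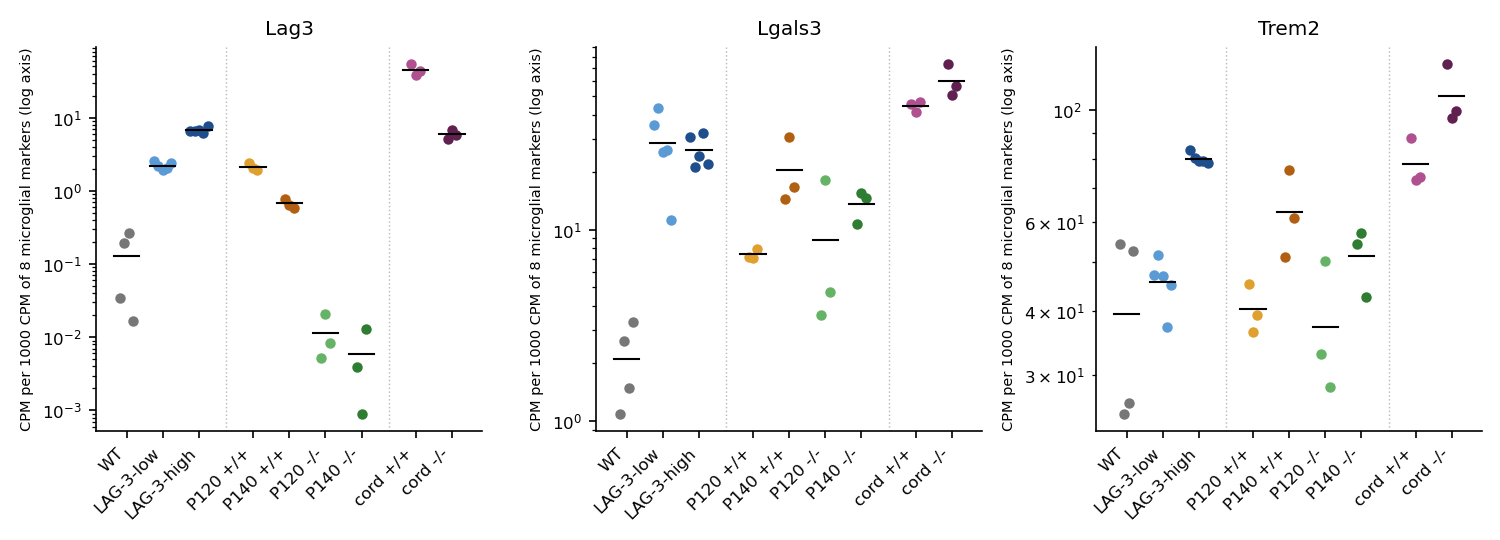
Lag3, Lgals3 and Trem2 per 1000 CPM of 8 microglial markers (y axis, log scale) in each library of the 9 groups; points are libraries, short lines are group means and dotted lines separate the 3 tables. Cord of SOD1G93A/LAG-3+/+ mice sits at 44.7 for Lag3 against 0.674 in P140 SOD1G93A/LAG-3+/+ microglia and 6.77 in LAG-3-high microglia, while Trem2 sits at 78.0 against 62.8.

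Fgl1, the transcript of the liver-derived ligand, held at most 34 counts in any microglia library, beside a floor of 3 counts, and none in many. WT libraries held 34, 0, 0 and 3 counts, LAG-3-low libraries 5, 0, 3, 0 and 2, and LAG-3-high libraries 12, 2, 16, 0 and 0. Of the 12 stage libraries, 8 held 0 counts, including all 3 P140 SOD1G93A/LAG-3+/+ libraries, and the highest held 8. Fgl1 did not pass the filter on low counts in either microglia table, so it has no fold change there, and a library at 0 still allows up to 3 counts. Hepatocyte markers (Alb, Apoa1, Ttr, Ahsg, Serpina1a, Fgb) summed to at most 3.83 CPM in any microglia library. In cord Fgl1 held 18, 11 and 14 counts in SOD1G93A/LAG-3+/+ and 6, 20 and 8 counts in SOD1G93A/LAG-3-/- mice, or 0.564 ± 0.101 and 0.511 ± 0.243 CPM (SD). The ranges overlapped, and the log2 fold change was -0.10 (SE 0.43, 95% interval -1.04 to 0.84, edgeR adjusted p = 0.872), which turned positive, up to 0.093, when 1 of 3 of the libraries was left out.

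Aplp1 signal was high in cord. Cord libraries held 1254, 1420.2 and 1383 CPM in SOD1G93A/LAG-3+/+ and 1827, 1429 and 1812 CPM in SOD1G93A/LAG-3-/- mice, with every library of the second group above the first and the lowest of them within 10 CPM of the highest of the first. The log2 fold change was 0.32 (SE 0.15, 95% interval -0.00 to 0.64, edgeR adjusted p = 0.107), and with the length and GC correction it was -0.063. Oligodendrocyte markers also summed higher in SOD1G93A/LAG-3-/- cord, at 24637 to 34425 against 17641 to 19280 CPM, and astrocyte markers lower, at 7658 to 12180 against 13024 to 14864 CPM. In the same order neuronal markers summed to 6315 to 6896 against 4538 to 6389 CPM, and 6 motor neuron markers to 117 to 180 against 72.6 to 117 CPM. Of those 6, 2 were called higher, beside 4.37% of all genes tested. The part of these markers in the Aplp1 level was not tested. In microglia Aplp1 was sporadic. WT libraries held 0, 1.57, 0 and 0 CPM, LAG-3-low libraries 0, 0, 0, 4.22 and 1.61 CPM, and LAG-3-high libraries 3.27, 4.07, 0, 1.77 and 1.48 CPM, so that 7 of 14 libraries were at 0. In the stage table it ran from 0 to 4.23 CPM. It was called in no comparison with all libraries included, and against WT it was called only without WT replicate 2, which left every WT library at 0.

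**Figure D5:**
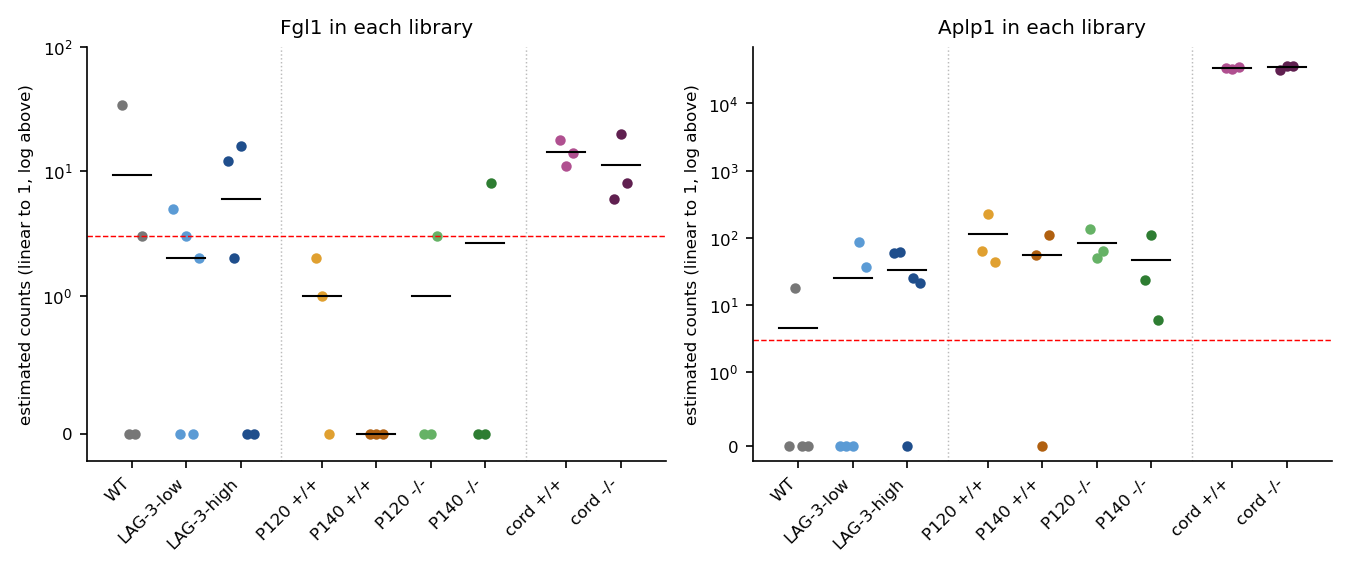
Estimated counts of Fgl1 (left) and Aplp1 (right) in each library of the 9 groups; the y axis is linear up to 1 and logarithmic above, short lines are group means, and the red dashed line marks the floor of 3 counts. Fgl1 stays at or below 34 counts everywhere, and Aplp1 lies at 31947 to 36213 counts in cord but at or below 228 in microglia.

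Per kilobase of transcript, the order of the 4 genes in SOD1G93A/LAG-3+/+ cord was Aplp1 (544 ± 34.98 CPM per kb), Lgals3 (43.1 ± 7.72), Lag3 (29.8 ± 7.79) and Fgl1 (0.492 ± 0.0885; SD, n = 3). The ranges of Lgals3 and Lag3 overlapped, and those of the other neighbours did not. In LAG-3-high microglia Lgals3 led (472 ± 79.8 CPM per kb), ahead of Lag3 (84.5 ± 8.97), Aplp1 (0.851 ± 0.640) and Fgl1 (0.313 ± 0.391, n = 5), and the ranges of Aplp1 and Fgl1 overlapped.

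The other partners of LAG-3 were read from lists of genes. For the canonical ligand, MHC class II (H2-Aa, H2-Ab1, H2-Eb1, H2-DMa, H2-DMb1, Cd74 and Ciita), 1 of 7 tested genes was higher in LAG-3-low than WT microglia, the transactivator Ciita (5.004 ± 6.46 against 0.105 ± 0.144 CPM, not called with the length and GC correction), where 10.9% of all genes were higher, and 0 were called in LAG-3-high against WT or LAG-3-low. The list medians were 0.21, -0.02 and -0.24 on the log2 scale, beside 0.04, -0.08 and -0.02 over all genes tested. From P120 to P140 in SOD1G93A/LAG-3+/+ microglia 6 of 7 rose, where 11.9% of all genes did, with a median of 1.64 beside -0.22 over all genes. The chains of the peptide-presenting molecules led, with H2-Eb1 up by 4.51 (SE 0.88, edgeR adjusted p = 0.00816), from 1.69 ± 1.58 to 38.5 ± 2.40 CPM, and H2-Aa up by 4.37 (SE 0.44, adjusted p = 0.00185), from 4.26 ± 0.980 to 87.8 ± 1.89 CPM. With the length and GC correction H2-Aa, H2-Ab1 and H2-Eb1 were still called, and Cd74, H2-DMa and H2-DMb1 were not. At P140, 4 of 7 were lower in SOD1G93A/LAG-3-/- microglia (H2-Aa, H2-DMa, H2-DMb1 and Ciita, median -0.99 beside 0.14, where 3% of all genes were lower), and with the correction the first 3 of these lost their call. H2-Aa was the only list gene with a called interaction (-4.30, SE 0.56, adjusted p = 0.0374). Between genotypes at P120, 0 of 7 were called, with a median of 1.04 beside -0.01 over all genes. H2-Aa was called higher there in SOD1G93A/LAG-3-/- microglia only with the length and GC correction (3.004, SE 0.40, adjusted p = 0.0987). The corrected H2-Aa change between genotypes at P140 was -0.71 (adjusted p = 0.302), and the corrected interaction was -3.72 (adjusted p = 0.0477). In cord 0 of 6 tested were called.

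Of the 9 signalling partners and sheddases, the sheddases Adam10 and Adam17 were the 2 that passed the filter in microglia. CD4 and the CD3 chains did not pass it. Adam17 was higher in LAG-3-high than WT microglia, at 339 ± 32.2 against 138 ± 99.9 CPM (log2 fold change 1.30, SE 0.39, edgeR adjusted p = 0.0302). From P120 to P140 in SOD1G93A/LAG-3+/+ microglia both fell, Adam10 from 358 ± 23.1 to 75.5 ± 20.8 CPM (-2.24, SE 0.38, adjusted p = 0.00581) and Adam17 from 273 ± 12.2 to 88.7 ± 49.9 CPM (-1.62, SE 0.34, adjusted p = 0.0106). At P140 both were higher in SOD1G93A/LAG-3-/- than in SOD1G93A/LAG-3+/+ microglia, by 1.76 (SE 0.37, adjusted p = 0.0337) and 1.73 (SE 0.34, adjusted p = 0.0309). These 4 calls also held with the length and GC correction. In the separately normalized LAG-3-sorted table, LAG-3-low microglia at P140 held 253 ± 52.8 CPM of Adam10 and 222 ± 4.23 CPM of Adam17. The P140 SOD1G93A/LAG-3+/+ libraries had 18896 to 20489 genes with counts, against 24136 to 24942 at P120. P140 SOD1G93A/LAG-3-/- replicate 1 had 20260. The part of these library differences in the sheddase changes was not tested. Of all genes tested, 12.1% were higher in LAG-3-high than WT microglia, 15.5% fell with stage and 7.22% were higher at P140 between genotypes. With only the 2 groups fitted, 0 genes were called between genotypes at P140. In cord Adam10 (-0.48, edgeR adjusted p = 0.00479) and Adam17 (-0.60, adjusted p = 0.00321) went the other way between genotypes. Both changes were under 1 on the log2 scale, so neither was called.

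Among the 9 genes tied to galectin-3, Lgals3bp, which encodes the galectin-3 binding protein, followed the sort. It stood at 197 ± 76.2 CPM in WT, 695 ± 135 in LAG-3-low and 2015 ± 369 in LAG-3-high microglia, and was called in all 3 comparisons (1.82, 3.35 and 1.54 on the log2 scale). Against LAG-3-low microglia, LAG-3-high microglia also held more Trem2 (1.17, SE 0.18, edgeR adjusted p = 0.00293), which binds galectin-3, and more of the lysosomal protein gene Lamp1 (1.49, SE 0.40, adjusted p = 0.0639), so that 3 of 9 were higher and 0 lower (median 0.59 beside -0.02 over all genes, of which 0.818% were higher). Against WT, Lgals3bp, Lamp1 and Lamp2 were the 3 of 9 higher in LAG-3-high, and Lgals3bp the 1 of 9 in LAG-3-low microglia, beside 12.1% and 10.9% of all genes. With stage in SOD1G93A/LAG-3+/+ microglia 2 of 9 rose (Trem2 and Lgals3bp) and 5 fell (Mertk, Tlr4, Itgb1, Mgat5 and Lamp1), beside 11.9% and 15.5% of all genes. Mertk, a receptor for apoptotic cells, went from 356 ± 2.77 to 94.6 ± 26.7 CPM. With the length and GC correction Mertk, Tlr4 and Lamp1 were still called there, and the other 4 were not. At P140 Mertk (1.71), Tlr4 (1.21) and Itgb1 (0.85) were higher in SOD1G93A/LAG-3-/- microglia, beside 7.22% of all genes, and Itgb1 lost its call with the correction. In cord the endotoxin receptor gene Tlr4 was the 1 of 9 called, at 2.54 ± 0.381 against 6.32 ± 0.744 CPM (-1.32, SE 0.20, adjusted p = 0.000716). Of the other galectins, 4 of 7 were tested in microglia, and the 2 called were Lgals1 (1.04) and Lgals9 (1.15), both higher at P140 than at P120 in SOD1G93A/LAG-3+/+ microglia and neither called with the length and GC correction.

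Among the relatives of APLP1, Aplp2 was called between all 3 sorted groups. Aplp2, the widely expressed member of the family, stood at 94.5 ± 37.7 CPM in WT, 402 ± 47.1 in LAG-3-low and 1260 ± 90.2 in LAG-3-high microglia, with no overlap between neighbours, and was called in all 3 comparisons (2.09, 3.74 and 1.65 on the log2 scale, SE 0.27, 0.29 and 0.24). Of the 14 tested genes of the family and its secretases, 3 were higher and 1 lower in LAG-3-low than WT microglia, beside 21.9% of all genes called there. Those higher were Aplp2 and the gamma-secretase genes Psen2 (1.36) and Ncstn (1.10), and the lower one was the gamma-secretase gene Psenen (-1.54). In LAG-3-high microglia the same 4 were called together with Adam17 (Psen2 2.18, Ncstn 1.78, Psenen -1.17), beside 27% of all genes. With the length and GC correction Psenen lost both calls and Ncstn the one in LAG-3-low microglia. With stage in SOD1G93A/LAG-3+/+ microglia Psen2 (1.47), Psenen (0.93) and Itm2b (1.26) rose, and Bace1 (-1.68), Apba1 (-2.25) and both sheddases fell. Of these Psen2 and the sheddases were also called with the correction. Among the fibrinogens and Fgl2, the relative of Fgl1 that immune cells express, Fgl2 was the only gene tested. It stood at 19.98 ± 13.5 CPM in WT, 154 ± 39.3 in LAG-3-low and 165 ± 47.0 in LAG-3-high microglia, and was higher than WT in both (2.95, SE 0.59, adjusted p = 0.005004, and 3.04, SE 0.59, adjusted p = 0.00298).

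Genes with patterns like those of the members were listed by the root mean square difference of mean-centred log2 CPM over the libraries of a table, as a description. Over the 14 LAG-3-sorted libraries those nearest to Lag3 were Cpped1, Atp6v0a1, Ttyh2, Csf2ra and Cd274, at 0.622 to 0.780 where the median gene was at 2.47. Cd274, which encodes the checkpoint ligand PD-L1, stood at 3.12 ± 2.82 CPM in WT, 41.0 ± 11.6 in LAG-3-low and 86.2 ± 19.1 in LAG-3-high microglia. Those nearest to Lgals3 were Fgr, Cotl1, Myo9b, Hcls1 and Capg (0.318 to 0.536, median gene 1.66). Over the 12 stage libraries the genes nearest to Lag3 were Parvb, Gm30890, Gm66255, Gm63702 and Haus8 (1.33 to 2.64, median gene 3.77). Parvb, a gene of integrin-linked adhesion, stood at 153 ± 35.9 and 166 ± 85.2 CPM in SOD1G93A/LAG-3+/+ and at 3.56 ± 3.93 and 3.69 ± 2.08 CPM in SOD1G93A/LAG-3-/- microglia at P120 and P140. Parvb was not among the 2 genes called between genotypes at P120. It was picked for its likeness to Lag3 in these same 12 libraries. Nearest to Lgals3 there were Id2, Tubb6, Lyz2, Psen2 and Gm70676 (0.186 to 0.304, median gene 1.06). Lyz2, the lysozyme gene of phagocytes, stood at 2090 ± 401 and 7712 ± 2763 CPM in SOD1G93A/LAG-3+/+ and at 1717 ± 987 and 3650 ± 609.8 CPM in SOD1G93A/LAG-3-/- microglia. Nearest to Aplp1 were Zfp275, Zfp747, Svip, Ggt5 and Kcnip3 (0.854 to 1.05, median gene 1.83).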

How the data were processed

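RNA-seq of 32 libraries was analysed, 14 of LAG-3-sorted microglia, 12 of microglia by genotype and stage and 6 of lumbar cord. The study prepared microglia RNA by SMART-seq (mRNA HT LP) and cord RNA with a NEBNext directional kit. Per the submitters' processing notes and the methods, the authors trimmed reads with Trim Galore 0.6.7, quantified them with Salmon 1.9.0 on GRCm39 and summed them per gene with tximport under R 4.2.1. The annotation release is not given in the sources used here. The deposited tables hold estimated counts, not normalized, which were rounded to whole numbers. Names and coordinates are from GENCODE vM39, in which 71, 66 and 71 identifiers were absent. Summing per gene over isoforms of different lengths, and amplifying full-length cDNA, can make a gene's count depend on transcript length.

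Each table was fitted in edgeR 4.0.16 (R 4.3.3) after TMM and filterByExpr, which kept genes by a count of at least 10 in enough libraries and a total of at least 15. The robust quasi-likelihood test gave p-values, adjusted by Benjamini-Hochberg over every gene that passed. Levels of 3 members were also compared by exact two-sided permutation tests in scipy 1.17.1 on log2 CPM (prior count 2). The floor was 3 counts, and floors cover counting error only. The fits were tested on simulated data. Named genes are the members, the list genes called in a comparison, list genes of high level, and the 5 genes nearest to a member (at least 10 CPM on average). The members and lists were chosen with earlier results of these data known. Alternatives were DESeq2 1.42.0, RLE size factors, no TMM, other filters, a replicate block, listed sex, only the 2 groups compared, each library left out, for the permutation tests another prior count, and a loess correction per library for GC content and transcript length, chosen after seeing the data. The qPCR, protein, imaging and behavioural data were not analysed here. The genes nearest to Aplp1 over the LAG-3-sorted libraries and the name of 1 microglial marker are not reported here.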

Additional observations from a re-analysis of the deposited data

Results flagged for a closer look

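Among the 12 groups of 4 or 5 libraries checked for a member, 2 held a library far from the rest, both in WT microglia. A group with 0 in every library but 1, as for Aplp1, is always flagged by this check. No chance rate is therefore given for counts this low. Fgl1 in WT replicate 1 was at 1.73 CPM, from 34 counts, where the other WT libraries held 0 to 3 counts. Aplp1 in WT replicate 2 was at 1.57 CPM, from 18 counts, where the other WT libraries held 0, and this library had the lowest total of all (9403286 counts). Aplp1 was not called against WT with all libraries included, and Fgl1 was not tested there.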

How the results depend on the processing

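Lgals3, and Lag3 in the gated fractions, kept their calls against WT, and Lag3 kept its fall in cord and at P120, under every alternative run in edgeR and DESeq2. Lag3 in LAG-3-high against LAG-3-low microglia lost its call without TMM (1.58), without a filter (1.97), with listed sex (1.98) and with the replicate block (1.93), and its fall at P140 lost it with only the 2 groups (-7.24). The stage change of Lag3 in SOD1G93A/LAG-3+/+ microglia gained one with DESeq2 (-1.08), without TMM (-1.67) and with only the 2 groups (-1.17), and that of Lgals3 lost it with the length and GC correction (0.98). Without TMM, Lgals3 in LAG-3-high against LAG-3-low turned to -0.073 (edgeR) and -0.026 (permutation test), and Aplp1 between genotypes at P120 to 0.065. Aplp1 there was 0.19 with listed sex. Its stage change in SOD1G93A/LAG-3+/+ microglia (-0.03) was 0.054 with DESeq2, 0.057 with RLE and 0.15 with the length and GC correction, which also turned Aplp1 in cord to -0.063. The replicate block turned Lgals3 (-0.10) and Aplp1 (0.15) between genotypes at P120 and the Aplp1 stage change (0.39), and changed no call of a member other than Lag3 between the fractions. Same-numbered libraries of different groups had 0 of 13, 0 of 18 and 0 of 3 correlations above 0.1 in the 3 tables, so the numbers were not taken as pairs. The causes were not tested.

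Counts of calls moved as follows. For LAG-3-low against WT, 3614 became 2257 with the replicate block and 1721 with only the 2 groups. The higher calls were 1793 of 3614, 1433 of 2257 with the block and 909 of 1721 with only the 2 groups. For LAG-3-high against WT, 4464 became 2663 with only the 2 groups, and for LAG-3-high against LAG-3-low 576 became 1131 with DESeq2 and 1450 with only the 2 groups. Between genotypes at P120, 2 became 162 (DESeq2), 4 (no TMM), 7 (no filter), 1 (replicate block), 1 (listed sex) and 31 (only the 2 groups). At P140, 1908 became 4368 (DESeq2), 814 (replicate block), 1002 (length and GC) and 0 (only the 2 groups). The higher calls at P140 were 1347 of 1908, 2510 of 4368 with DESeq2 and 775 of 1002 with the correction. For stage in SOD1G93A/LAG-3-/- microglia 0 became 464 (DESeq2). For the interaction 32 became 1317 (DESeq2), 14 (RLE), 179 (no filter), 15 (length and GC) and 0 (replicate block or listed sex).

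Leaving out 1 library at a time gave these ranges. Counts of calls ran from 2852 to 5775 (LAG-3-low against WT), 3612 to 6082 (LAG-3-high against WT), 370 to 910 (LAG-3-high against LAG-3-low), 1 to 6 (genotypes, P120), 95 to 4140 (genotypes, P140; 95 without SOD1G93A/LAG-3-/- replicate 2 and 4140 without replicate 1), 3218 to 5598 (stage, SOD1G93A/LAG-3+/+), 0 to 4 (stage, SOD1G93A/LAG-3-/-), 0 to 1713 (interaction) and 1215 to 1808 (cord). Lag3 ran from 1.89 to 2.09 in LAG-3-high against LAG-3-low, from -1.26 to -1.12 with stage in SOD1G93A/LAG-3+/+ and from -0.60 to 0.93 in the interaction. Lgals3 ran from -0.71 to 0.41 between genotypes at P120, from -1.20 to -0.62 at P140 and from -0.31 to 0.19 in cord. Fgl1 in cord ran from -0.60 to 0.093. Aplp1 ran against WT from 0.11 to 7.41 for the LAG-3-low and from 2.01 to 8.27 for the LAG-3-high fraction, both highest without WT replicate 2 (edgeR adjusted p = 0.0905 and 0.0662), from -0.45 to 0.82 and -1.996 to 0.13 between genotypes at P120 and P140, from -0.95 to 0.84 with stage in SOD1G93A/LAG-3+/+ and from -1.96 to 0.18 in the interaction. In the exact permutation tests Lag3 ran from 3.29 to 4.64 (LAG-3-low against WT), 5.27 to 6.61 (LAG-3-high against WT) and 1.903 to 2.09 (between fractions), and Lgals3 from 2.64 to 3.18 and 2.99 to 3.52 against WT, with adjusted p from 0.0476 to 0.0643 because fewer samples raise the smallest p. Depth limits Fgl1 and Aplp1 in microglia and Lag3 in SOD1G93A/LAG-3-/- microglia, where libraries held 1 to 14 counts.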

Other observations

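Csf1r, the receptor that keeps microglia alive, stood lower in proportion to the microglial markers in P140 SOD1G93A/LAG-3+/+ microglia, the group in which Lag3 stood at 0.674 per 1000 CPM of those markers. Csf1r was at 42.3 ± 18.7 per 1000 CPM of the 8 markers there, against 207.5 ± 14.5 at P120, 166 ± 63.7 in P140 SOD1G93A/LAG-3-/- microglia and 234 ± 11.6 in SOD1G93A/LAG-3+/+ cord (SD, n = 3 each). The SOD1G93A fractions sorted by LAG-3 at P140 held 219 ± 13.1 (LAG-3-low) and 234 ± 5.79 (LAG-3-high; SD, n = 5 each). WT microglia held 136 ± 44.8 (n = 4). The low ratio was thus not seen in the LAG-3-sorted microglia of the same age. By library the P140 SOD1G93A/LAG-3-/- values were 92.6, 210 and 194 in replicates 1 to 3. Replicate 1 also had 20260 genes with counts, against 23896 and 23459 in replicates 2 and 3. The 3 P140 SOD1G93A/LAG-3+/+ libraries had 20269, 18896 and 20489 such genes. Csf1r is itself 1 of the 8 markers, and no test was run on this ratio. The part of these library differences in it was not tested.

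Cd74, the invariant chain of MHC class II, was at 52.4 ± 20.3 per 1000 CPM of the markers in LAG-3-high, 42.0 ± 24.3 in LAG-3-low and 6.27 ± 10.4 in WT microglia (SD, n = 5, 5 and 4). The fractions overlapped, with 35.1 to 86.1 in LAG-3-high and 5.07 to 70.2 in LAG-3-low libraries. Cd74 was not called in any of these 3 comparisons.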
